A study of Mus musculus with 33 samples.

Results

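The 6 peak lists from solvent-treated lymphoma cells, 3 from water (H2O) and 3 from DMSO, were set against the 3 lists of untreated cells of the same tumours. These 9 lists are all those titled as untreated, water or DMSO among the 18 lists of Arf tumours, out of 26 lists in the series. Each list gives the places where p53 was found on DNA by chromatin immunoprecipitation and sequencing (ChIP-seq) with the antibody CM5p. The cells were B cells from lymph nodes of Eµ-myc mice of strain C57/Bl6 with the genotype Arf-/- Trp53+/+, in which Myc drives lymphoma, Arf is missing and both Trp53 alleles are wild type. Lymph nodes were pressed to single cells and not purified further, so other cells of the node may be present, and a peak list holds no marker by which to check this. All 3 groups share this genotype and come from tumours 5, 6 and 7, and the tumour number pairs them. Water was given at 0.1% and DMSO at 0.05% of the volume, each for 3 h, while the untreated samples carry no time. The labels do not say whether untreated cells were also kept for 3 h, so solvent and incubation cannot be told apart. Nor do they say whether the 3 samples of a tumour came from separate cultures. Lists used for reference came from the same 3 tumours after 3 h with doxorubicin at 1 µM or with (-)-Nutlin or (+)-Nutlin at 5 µM. Further reference lists came from 4 tumours of another genotype, Trp53(KI/delta), after 2 h with OHT or with ethanol at 0.1% of the volume.

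p53 is a transcription factor that is made continuously and kept low by Mdm2, a ubiquitin ligase that binds it and sends it to degradation. Arf, which Myc induces, holds Mdm2 back, so in cells without Arf p53 stays under Mdm2 until damage or an Mdm2 blocker such as Nutlin releases it. A solvent control shows how much of the binding seen after such a drug is already there when only the carrier is added. The comparison here is that carrier against cells with no addition.

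Neither solvent moved the number of p53 peaks in the same direction in all 3 tumours. In tumour 5 the untreated list held 2696 peaks, the water list 2206 and the DMSO list 1694. In tumour 6 these were 2180, 1662 and 935 peaks. In tumour 7 they were 742, 858 and 892 peaks. Tumours 5 and 6 thus had the most peaks when untreated and the fewest in DMSO, whereas tumour 7 had the fewest when untreated, and the 3 groups overlapped.

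**Figure D1:**
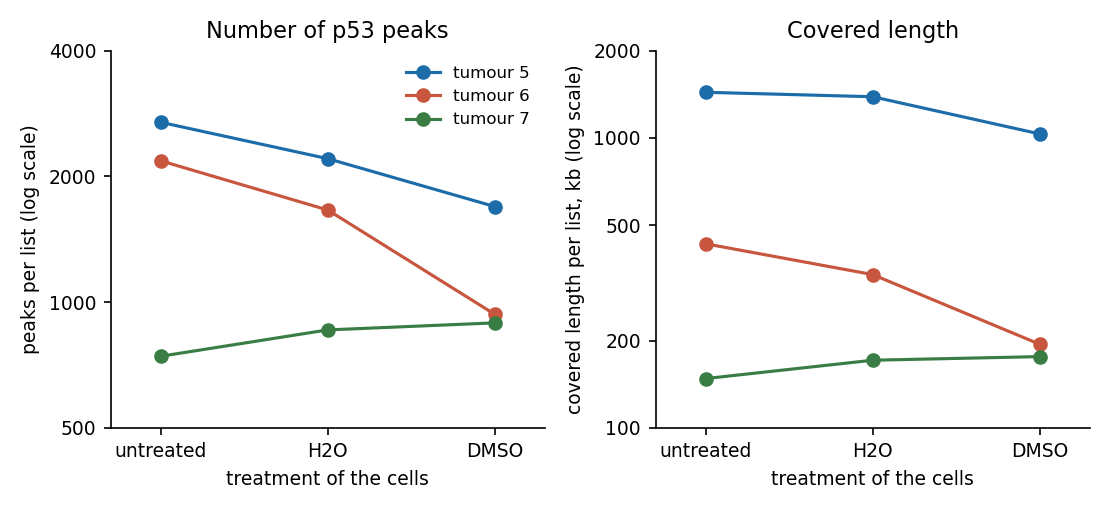
Peaks per list (left) and covered length in kb (right), both on log axes, for untreated, water-treated (H2O) and DMSO-treated cells. Each point is 1 list and lines join the lists of 1 tumour. The lines of tumours 5 and 6 go down from untreated to DMSO and that of tumour 7 goes up, from 742 to 892 peaks.

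Water lists held 0.82, 0.76 and 1.16 times as many peaks as the untreated lists of tumours 5, 6 and 7. Their mean log2 ratio was -0.16 ± 0.32 (SD, n = 3), with a paired 95% interval from -0.96 to 0.64. For DMSO the ratios were 0.63, 0.43 and 1.2, with a mean log2 ratio of -0.54 ± 0.75 (SD, n = 3) and an interval from -2.41 to 1.33. DMSO against water gave ratios of 0.77, 0.56 and 1.04, and both solvents together against untreated gave 0.72, 0.57 and 1.18. Each interval includes equality and reaches beyond a 1.5-fold difference in either direction, so these lists neither show an effect of a solvent nor show that there is none. The comparisons of water and of DMSO with untreated share the untreated lists. Two-sided exact permutation tests over libraries gave p = 0.8 for water, 0.4 for DMSO, 0.7 for DMSO against water and 0.488 for both solvents, and 0.8 for each after Benjamini-Hochberg adjustment over these 4 comparisons. With 3 against 3 libraries the exact test cannot go below 0.1. These tests ignore the pairing by tumour, and the 2 solvent lists of a tumour are not independent. Within tumours, an exact sign-change test gave p = 0.5 for water, for DMSO and for DMSO against water, and cannot go below 0.25. For both solvents, exact permutation of which list of each tumour is the untreated one gave p = 0.259. Without tumour 6 the mean log2 ratio of DMSO was -0.20, and without tumour 7 it was -0.95.

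The lower water count of tumour 5 came with a difference in the narrowest peak. No list gives peak heights, and the narrowest peak shows how small a peak a list admits. In tumour 5 it was 304 bp in the untreated list, 355 bp in the water list and 344 bp in the DMSO list. Of the 2696 untreated peaks, 857 were narrower than any water peak. Counting only peaks of at least 355 bp, tumour 5 had 1839 untreated, 2206 water and 1535 DMSO peaks, and the water-to-untreated ratio was 1.2 in place of 0.82. In tumour 6 the narrowest peaks were 53, 54 and 54 bp, and at 54 bp or more there were 1974 untreated, 1662 water and 935 DMSO peaks. The ratios of tumour 6 were then 0.84 for water and 0.47 for DMSO. All 3 lists of tumour 7 began at 52 bp. With this common minimum, chosen after the values were seen, the mean log2 ratio of water to untreated was 0.07 and that of DMSO -0.36. In tumour 6 both solvent lists still had fewer peaks than the untreated list, DMSO less than 0.5 times as many.

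Covered length was ordered in each tumour as peak number was. Untreated, water and DMSO lists covered 1438, 1388 and 1033 kb in tumour 5. They covered 431.5, 337.9 and 194.3 kb in tumour 6, and 147.9, 171.1 and 176.1 kb in tumour 7. Tumour 5 stands apart because its peaks are of a wide kind, with medians of 418, 514 and 505 bp, against 96, 101 and 101 bp in tumour 6 and 100.5, 99.5 and 102 bp in tumour 7. Lengths are therefore compared only within a tumour. The mean log2 ratio of covered length was -0.06 for water and -0.46 for DMSO. Exact permutation over libraries, which ignores the pairing, gave p of 0.9 and 0.7.

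Where a site had a peak in both lists, its width was close to the same after water, and narrower after DMSO in tumour 6. Sites with exactly 1 peak in each list were compared, 1782 for water in tumour 5, 936 in tumour 6 and 432 in tumour 7. The median water-to-untreated width ratio was 1.11, 0.93 and 1.05 in tumours 5, 6 and 7. For DMSO, with 1483, 561 and 441 sites, it was 0.98, 0.74 and 1.06. The mean of the 3 log2 medians was 0.04 ± 0.13 (SD, n = 3) for water and -0.12 ± 0.27 (SD, n = 3) for DMSO, with p = 0.75 for each in an exact sign-change test over tumours, which cannot go below 0.25. Without tumour 6 the DMSO value was 0.03. Peak centres shifted by a median of 37 to 39 bp in tumour 5 and of 17 to 22.5 bp in tumours 6 and 7, less than the width of a typical peak.

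The 3 lists of a tumour shared a core of regions and differed in the others. Overlapping peaks of the 3 lists were merged into regions, 3230 in tumour 5, 2659 in tumour 6 and 1151 in tumour 7. Regions with a peak in all 3 lists made up 42.0%, 24.0% and 40.0% of them, with median widths of 710, 381 and 263.5 bp. Regions with a peak in the untreated list alone made up 23.5%, 37.4% and 8.78%, with median widths of 334, 72 and 62 bp. These are widths of merged regions, and joining peaks of several lists widens a region, so they do not compare the peaks themselves. Water alone had 10.7%, 16.2% and 16.0% of regions, and DMSO alone 4.15%, 3.05% and 18.9%. Untreated-only regions were the most frequent single-list kind in tumours 5 and 6 and the least frequent in tumour 7, which follows the length of the lists. Regions with peaks in both solvent lists and not in the untreated one numbered 66 in tumour 5, 28 in tumour 6 and 98 in tumour 7, or 2.04%, 1.05% and 8.51%.

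**Figure D2:**
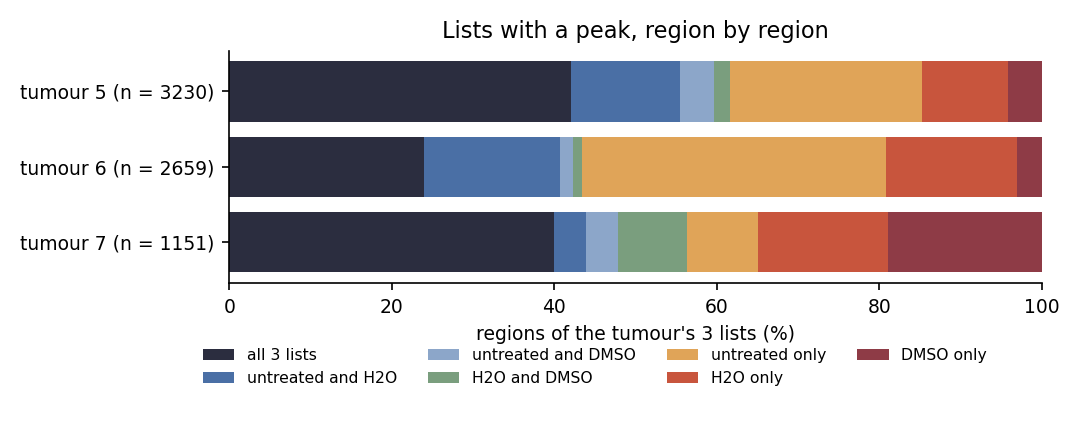
Regions of each tumour by which of its 3 lists have a peak there, as a share of all regions of that tumour (n beside the bars). Dark segments at the left are regions in all 3 lists (42.0%, 24.0% and 40.0% in tumours 5, 6 and 7), and tumours 6 and 7 differ in the untreated-only (37.4% and 8.78%) and DMSO-only segments (3.05% and 18.9%).

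Width of a peak went with whether it was found again. The peaks of each list were ranked by width into 5 equal classes. In the widest class, water lists had a peak over 99.1%, 98.9% and 99.3% of untreated peaks of tumours 5, 6 and 7. In the narrowest class the shares were 29.8%, 20.2% and 48.3%. DMSO lists covered 98.0%, 86.0% and 99.3% of the widest untreated class, and 16.3%, 6.19% and 53% of the narrowest. In the other direction, untreated lists covered 99.4% to 100% of the widest class of each solvent list, and 26.8% to 63.4% of the narrowest. The widest peaks were thus nearly all present with and without solvent, with the exception of the widest untreated peaks of tumour 6 in DMSO.

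**Figure D3:**
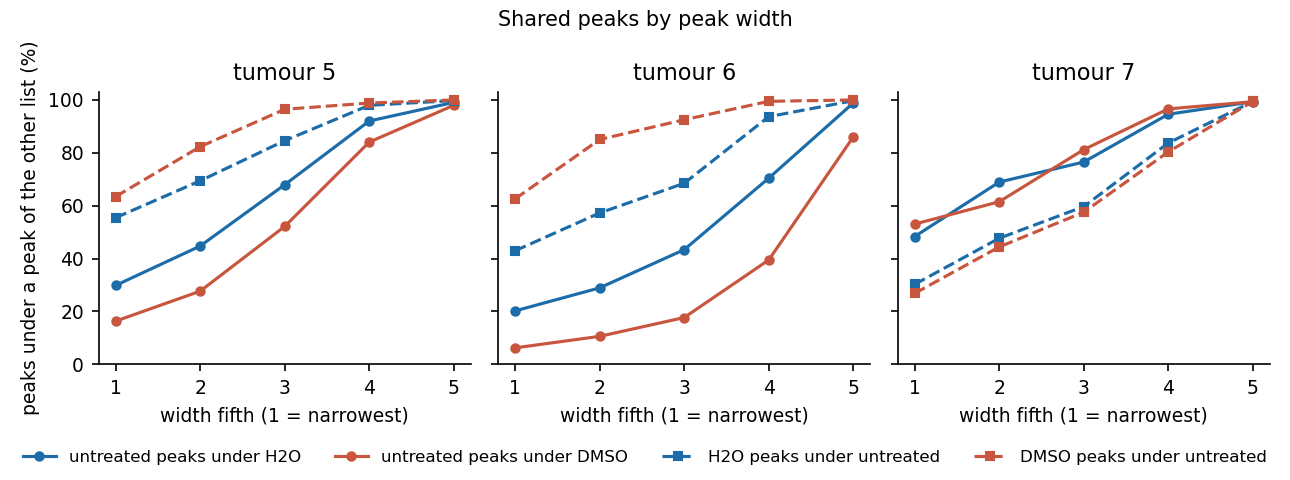
Share of peaks that lie under a peak of the other list of the same tumour, by width class of the peak (1 is the narrowest class of the list, 5 the widest). Solid lines are untreated peaks, dashed lines are solvent peaks; blue is water (H2O) and red is DMSO. All lines end near 100% in the widest class but for untreated peaks under DMSO in tumour 6, at 86.0%.

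Over all widths, 81.4%, 72.4% and 64.1% of water peaks lay under an untreated peak in tumours 5, 6 and 7, a mean of 72.6% ± 8.7 (SD, n = 3). For DMSO peaks these were 88.2%, 87.9% and 61.7%, a mean of 79.3% ± 15.2 (SD, n = 3). Of untreated peaks, 65.5% ± 12.6 (SD, n = 3) lay under a water peak and 55.3% ± 23.2 (SD, n = 3) under a DMSO peak. In each tumour the shorter list was the better contained one, and the gap was widest in tumour 6, with 87.9% of its DMSO peaks under untreated peaks and 32.0% of its untreated peaks under DMSO peaks. Within 500 bp in place of overlap, the shares of water peaks became 81.7%, 82.7% and 78.3%, so in the narrow lists of tumours 6 and 7 some unshared peaks lay beside a peak of the other list. More than 50% of peaks in those narrow lists had another peak of their own list within 500 bp (51.9% to 64.3%), against 0.94% to 1.97% in tumour 5.

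Whether a solvent list lay closer to its own tumour than to another moved with list length. Of water peaks of tumour 7, 64.1% lay under untreated peaks of tumour 7 and 82.5% under the longer untreated list of tumour 6. Of water peaks of tumour 6, 72.4% lay under their own untreated list and 30.5% under that of tumour 7. With the 6 lists of tumours 6 and 7 each limited to their 742 widest peaks, a choice made after the values were seen, tumour 6 gave 80.7% with its own and 56.3% with the other, and tumour 7 gave 69.8% and 69.1%. DMSO peaks under that limit gave 78.7% and 60.8% for tumour 6, and 69.0% and 73.1% for tumour 7. At equal length the untreated list of the same tumour thus held more of the solvent peaks of tumour 6, by each solvent. For tumour 7 the shares were nearly equal for water and higher with the other tumour for DMSO.

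The untreated list did not stand apart from the 2 solvent lists of its tumour. The Jaccard index, the covered base pairs shared by 2 lists divided by those in either, was 0.578 for water with DMSO in tumour 5, 0.582 for untreated with water and 0.550 for untreated with DMSO. In tumour 6 these indices were 0.500, 0.560 and 0.410, and in tumour 7 they were 0.612, 0.611 and 0.60. The index of the solvents with each other exceeded the mean of their indices with untreated by 0.011, 0.016 and 0.0062. Picking 1 list per tumour as the untreated one can be done in 27 ways, and the exact permutation p of the mean excess of 0.011 ± 0.0047 (SD, n = 3) was 0.778, with 0.037 as the smallest possible value. With the lists of each tumour limited to equal length the excess was -0.0029. Of the 9 lists, 8 were closest to another list of their own tumour. The exception was DMSO in tumour 6, closest to DMSO in tumour 7 (0.526), while its index with water of tumour 6 was 0.500. Its indices with untreated and water of tumour 7, 0.506 and 0.521, were above that too. The lists of tumour 5 also differ from all others in peak width, which limits their indices with them.

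**Figure D4:**
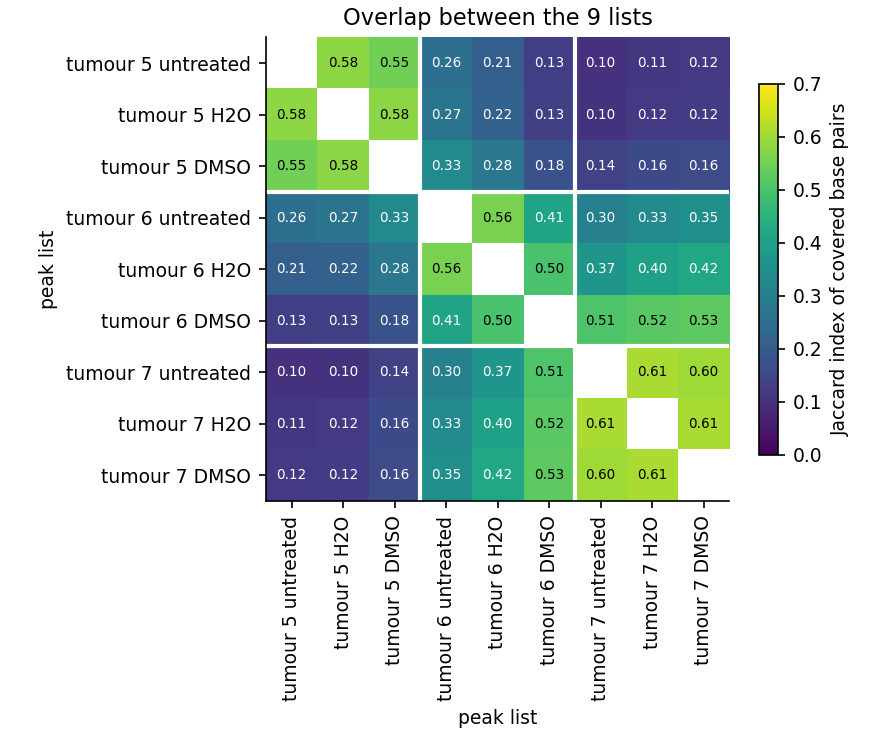
Jaccard index of covered base pairs for each pair of the 9 lists, ordered by tumour (white lines) and then untreated, water (H2O) and DMSO. The blocks on the diagonal hold pairs from 1 tumour (0.410 to 0.612). Pairs of tumour 5 with the narrow lists of tumours 6 and 7 are lower (0.099 to 0.334) and also differ in peak width. Pairs of tumour 6 with tumour 7 (0.3045 to 0.526) overlap the range of the blocks.

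Site by site, almost no region changed with a solvent in all 3 tumours. A region counts as gained when every solvent list and no untreated list had a peak there, and as lost in the opposite case. Of 3708 regions in the water and untreated lists, 1 was gained and 1 lost, each 0.0270% of those tested. Of 3395 regions in the DMSO and untreated lists, 1 was gained (0.0295%) and 4 were lost (0.118%). These counts are small beside those that could have been affected, since 436 regions had a peak in all 3 water lists, 399 in all 3 DMSO lists and 398 in all 3 untreated lists. With both solvents together, 0 of 3853 regions were gained (0%) and 1 was lost (0.0260%). Between the solvents, 0 of 2906 regions were gained with DMSO over water (0%) and 4 were lost (0.138%). By Fisher's exact test of 6 solvent against 3 untreated lists with Benjamini-Hochberg adjustment, 0 regions (0%) were called. The smallest p this test can give is 0.0119, too large to pass the adjustment over 3853 regions unless a large share of them separates the groups fully, so this count of 0 was set by the design and says nothing about change. At an unadjusted p under 0.05 there were 2, each with a peak in all 3 untreated lists and in 0 or 1 solvent lists. Lists of 1 tumour are not independent, so these p-values are approximate. The 4 regions lost with DMSO became 165 without tumour 7 and 31 without tumour 5, and the 1 lost with water became 71 without tumour 7.

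Averaged over their lists, the peaks of regions that met this rule ranked from among the narrowest to near the median width. Single peaks could be wider than the median of their list. The region lost with both solvents, chr15:98748459-98748808 (mm9, as all positions here), had untreated peaks of 305, 72 and 52 bp in tumours 5, 6 and 7, within 1 bp of the narrowest peak of the list in tumour 5 and equal to it in tumour 7. Its mean width percentile, the share of a list's peaks that are no wider, was 16.3. It had a peak in 2 of 3 doxorubicin, 3 of 3 (-)-Nutlin, 2 of 3 (+)-Nutlin and 3 of 4 lists of Trp53(KI/delta) tumours given OHT, in 14 of the 26 lists in all. The region gained with water, chr11:102269734-102270132, had peaks of 380, 65 and 86 bp in water lists and was called in 2 doxorubicin and 3 (-)-Nutlin lists. The region gained with DMSO, chr7:28835024-28835395, had DMSO peaks of 355, 55 and 56 bp, at a mean percentile of 11.8. A water peak of 372 bp was there too in tumour 5, and it was called in 16 of the 26 lists.

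The other DMSO-lost regions were wider for their lists, with mean percentiles of 47.6 on chromosome 5, 25.9 on chromosome 12 and 49.6 on chromosome 2. At chr5:82062774-82063399 the untreated peaks measured 452, 184 and 85 bp and the water peaks 569, 88 and 57 bp, and no DMSO list had a peak. At chr12:45054376-45054935 they measured 338, 70 and 58 bp untreated and 540, 63 and 54 bp with water. Both regions were picked for having a peak in all 3 untreated lists and no DMSO peak, so these are not findings about them. Both also had a peak in all 3 water lists and so met the rule for loss with DMSO over water. They had a peak in all doxorubicin and (-)-Nutlin lists and in 2 (+)-Nutlin lists. Of the 4 lists of Trp53(KI/delta) tumours given OHT, 1 had a peak at the chromosome 5 region and 0 at the chromosome 12 region. Ethanol lists of those tumours had 0 at each. At chr2:127951397-127951833 the untreated peaks measured 397, 101 and 89 bp, with 1 water peak of 119 bp in tumour 6. Of the 3853 regions of the 9 lists, 152 were called in both solvent lists and not in the untreated list in 1 tumour. None of them was so in 2 or more tumours. An untreated peak with neither solvent was seen in 1386 of the 3853 regions in at least 1 tumour and in 60 in at least 2. These 2 rules are not mirror images, since 1 asks for peaks in 2 lists and the other for a peak in 1. Untreated lists were also the longest in tumours 5 and 6, so these counts do not measure loss with a solvent. In all, 19 of the 3853 regions went both ways, with solvents alone in 1 tumour and untreated alone in another. Among the 60 regions with an untreated peak and neither solvent in at least 2 tumours, the one on chromosome 15 was so in all 3 tumours. Of the others, chr1:95467721-95468661 was the widest for its lists, with a mean percentile of 68.5. It had untreated peaks of 188 and 65 bp in tumours 6 and 7 with no solvent peak, yet untreated, water and DMSO peaks of 688, 755 and 941 bp in tumour 5. The regions chr19:55295557-55296367 and chr6:145134771-145135633 had peaks in all 3 lists of tumour 5 too, and in tumours 6 and 7 no solvent peak, with untreated peaks of 81 and 69 bp and of 55 and 71 bp there. At chr2:163427999-163428592 the untreated peaks lay in tumours 5 and 6, at 594 and 87 bp.

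Fewer sites were held in common by all 9 lists than were called in a single list. Of the 3853 regions, 315 had a peak in all 9 lists, or 8.18%, and 1541 in a single list, or 40.0%. All 315 had a peak in each doxorubicin and (-)-Nutlin list as well, and 292 in all 3 (+)-Nutlin lists. The same shares over all 3853 regions are not given here, so this is not shown to be particular to the 315. Within each tumour, 82.2% or more of every kind of region lay under a doxorubicin or (-)-Nutlin peak, single-list regions included. Widths are given here only for the 10 of them that are widest by mean width percentile, so they do not describe the rest. The widest, chr1:156902108-156905935, had peaks of 3074, 2593 and 2401 bp in untreated, water and DMSO lists of tumour 5. Its peaks were 1926, 1770 and 1867 bp in tumour 6 and 1844, 2165 and 1838 bp in tumour 7, and it was called in all 26 lists. The next, chr7:16892674-16895528, also in all 26 lists, measured 2247, 2733 and 2293 bp, then 1807, 1501 and 1371 bp, then 1284, 1425 and 1634 bp. The third, chr7:71471437-71474067, measured 2536, 2408 and 2283 bp, then 1442, 1591 and 1248 bp, then 1276, 1282 and 1412 bp. In none of these 3 did the same group have the widest peak in all 3 tumours. The following 7 by width were chr3:32261803-32264964, chr1:9627695-9630143, chr3:87295142-87297610, chr12:111962209-111964427, chr1:133034769-133037151, chr18:35687952-35689548 and chr2:127958746-127960935. They had peaks of 918 to 3084 bp over the 9 lists. At chr3:87295142-87297610 the untreated peak was the widest in every tumour, at 2449, 1325 and 1463 bp. At chr12:111962209-111964427 it was too, at 2219, 1319 and 1229 bp. At the rest of the 7 no group was widest in all 3 tumours. These orders were not tested.

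Peaks found in only some of the 3 lists mostly lay where p53 was also called after doxorubicin, which damages DNA, or (-)-Nutlin, which blocks Mdm2. Solvent-only regions, with a water or DMSO peak and no untreated peak, numbered 544, 539 and 500 in tumours 5, 6 and 7. Of these, 94.1%, 98.7% and 97.0% lay under a doxorubicin or (-)-Nutlin peak of the same tumour, a mean of 96.6% ± 2.3 (SD, n = 3). Untreated-only regions did so in 96.3%, 99.0% and 82.2% of cases, a mean of 92.5% ± 9.0 (SD, n = 3). Regions in all 3 lists reached 99.6%, 99.5% and 96.1%. Untreated-only regions of tumour 7 were the lowest of all kinds, and they were few (101 regions).

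**Figure D5:**
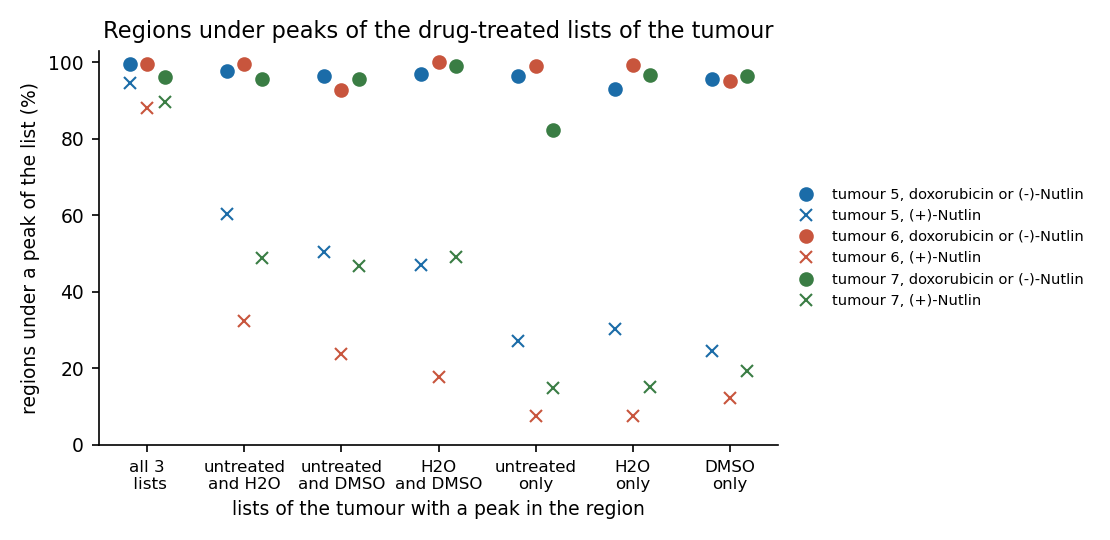
Share of regions that lie under a doxorubicin or (-)-Nutlin peak (circles) or under a (+)-Nutlin peak (crosses) of the same tumour, by which of the untreated, water (H2O) and DMSO lists had a peak there. Circles lie between 82.2% and 100% for every kind, while crosses are highest for regions in all 3 lists (87.9% to 94.6%) and lowest for those in 1 list (7.44% to 30.2%).

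The list of (+)-Nutlin, the mirror-image form that binds Mdm2 poorly, covered far fewer of the unshared regions. It had a peak at 30.9%, 8.72% and 23.6% of solvent-only regions and at 27.1%, 7.44% and 14.9% of untreated-only regions, against 94.6%, 87.9% and 89.6% of regions in all 3 lists. Length and width of the lists move with these shares. Doxorubicin and (-)-Nutlin lists held 5617 to 11346 wide peaks over 3.35 to 6.53 Mb, and (+)-Nutlin lists 707 to 2351 peaks over 0.158 to 1.41 Mb. With the doxorubicin and (-)-Nutlin lists limited to their 5617 widest peaks, the number in the shortest of them, the share of solvent-only regions was 87.8%. The part of list width in these shares was not tested.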

How the data were processed

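The 9 untreated, water and DMSO lists were used as deposited, with the 6 doxorubicin and (-)-Nutlin lists, the 3 (+)-Nutlin lists and the 8 lists of Trp53(KI/delta) tumours for reference. The members, lists and tests were chosen with earlier results of these data known. The deposited lists have 3 columns (chromosome, start and end in base pairs) and no score, so of the authors' calls only where a peak lies and how wide it is can be used. Per the submitters' processing notes, BWA 0.6.2, SAMtools and build mm9 were used; no source used here names the peak caller, its threshold or how inputs entered. Where samples of a tumour were not separate cultures, p-values measure spread that may be technical. Read depth per library is unknown, so less binding and a less sensitive call cannot be told apart. No mm9 genome or annotation was at hand, so genes, motifs and sequences were not analysed here.

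Peaks sharing at least 1 bp were merged into regions. Tests were two-sided exact permutations over libraries, with the tumour (the same number in the titles pairs the samples) as a block as an alternative, and for single regions Fisher's exact test, with Benjamini-Hochberg adjusted p-values and a threshold of 0.05; 95% intervals assume normal paired log2 differences. Named regions were all those gained or lost in all 3 tumours, the 10 widest in all 9 lists, and up to 5 in each direction repeated in at least 2 tumours, ranked by mean width percentile. Alternatives comprised covered length, peaks merged within 500 bp, wider peaks, 200 bp around midpoints, a merge gap of 200 bp, 50% overlap, equal list lengths and each tumour left out. The code, in Python 3.11.15 with numpy 2.4.6 and scipy 1.17.1, was tested on simulated lists of both solvents against untreated, in which all 400 changed of 1400 regions were recovered. The simulated lists were alike in all 3 tumours, so this checks the code and not the power to find change in the real lists.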

Additional observations from a re-analysis of the deposited data

How the results depend on the processing

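Of 138 alternative values for 28 results, 99 were counted as the same, 34 as moved and 5 as reversed. For log2 ratios and the Jaccard excess, no margin was set on size. The same there meant an unchanged sign and side of the p threshold, a side most of these tests cannot leave. The DMSO log2 ratio of peak numbers, -0.542, counted as the same at -0.20 without tumour 6 and -0.95 without tumour 7. The 99 is thus no measure of how stable the sizes were. The smallest p of an exact test over libraries was 0.259. The mean log2 ratio of water to untreated peak numbers was 0.037 for peaks at or above the tumour's median width and 0.075 at the common narrowest width, in place of -0.16. With the tumour as a replicate block, the paired exact p was 0.5 for water (-0.157), 0.5 for DMSO (-0.542) and 0.259 for both solvents (-0.350), and the block changed no call. The Jaccard excess was -0.0029 at equal list length. Leaving out 1 tumour, the log2 width ratio ranged from -0.012 to 0.11 for water and from -0.23 to 0.026 for DMSO.

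With 1 list of each group allowed to differ, water gained 115 and lost 344 regions, DMSO gained 45 and lost 557, and both solvents gained 2 and lost 143. At equal list length water gained 0 and lost 0, DMSO lost 1 and both lost 0. Leaving out 1 tumour gave 7 to 16 gained and 6 to 71 lost with water, 1 to 4 gained and 5 to 165 lost with DMSO, and 3 to 54 lost with both. Fisher's test at an unadjusted p under 0.05 gave 2 regions. The share of solvent-only regions was 89.0% under doxorubicin alone, 93.8% under (-)-Nutlin alone and 87.8% with those lists at equal length. Added after seeing the data were the common narrowest width and the 742 widest peaks of tumours 6 and 7. No causes were tested. Unknown depth limits every comparison of list length.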

Other observations

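The differences in list length were spread over the genome. In tumours 5 and 6 every one of the 19 autosomes had fewer peaks with water and with DMSO than untreated. The DMSO-to-untreated ratio ran from 0.571 on chromosome 10 to 0.783 on chromosome 16 in tumour 5, and from 0.340 on chromosome 13 to 0.581 on chromosome 17 in tumour 6. For water it ran from 0.738 on chromosome 2 to 0.940 on chromosome 16 in tumour 5, and from 0.655 on chromosome 18 to 0.898 on chromosome 8 in tumour 6. In tumour 7, 1 autosome was below 1 with water and 2 with DMSO, the lowest being chromosome 6 for each, at 0.976 and 0.857. These ratios rest on 25 to 191 untreated peaks a chromosome and have no replicates within a tumour.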
